A study of Mus musculus with 2 samples.

Results

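Among fixed liver cells profiled by single-cell RNA sequencing, 600 cells were selected whose profiles combined the RNA of hepatocytes with the RNA of macrophages. Each cell was given a macrophage value, the summed UMIs (unique molecular identifiers, each counting a captured probe molecule) of Clec4f, Cd5l, Csf1r, Vsig4 and Ptprc divided by all UMIs of the cell. Eligible were cells with 5000 to 10000 detected genes, at most 100000 UMIs and a mitochondrial share of UMIs of at most 5%, which left 21046 of 39559 cells. The 600 eligible cells with the highest value over both libraries were taken as members, 2.85% of the eligible cells, and the remaining 20446 eligible cells are called other cells. Values are in CPM, UMIs per 1000000 UMIs of the cell or of the summed cells.

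The study asked how p16-expressing hepatocytes of the fibrotic mouse liver differ from their neighbours. All cells came from male p16-Tom mice on the C57BL/6 background, in which tamoxifen activates a Cre recombinase under the p16 promoter and thereby labels, permanently and in any cell type that transcribes p16Ink4a at that time, with the red reporter tdTomato. Both groups had received carbon tetrachloride (CCl4), a hepatotoxin, for 4 weeks and tamoxifen, and the labels set them apart by the sort: the Tom- library holds p16low and the Tom+ library p16high cells, both labelled as hepatocytes. The liver was fixed before it was dissociated, and the gate used a nuclear dye, a mitochondrial dye and tdTomato, with no macrophage marker. Each group is 1 library, how many mice went into it is not given in the sources used here, and a cell cannot be traced to an animal. No test between the groups was therefore possible, cells are not replicates, and the 95% intervals in brackets cover counting error only.

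Kupffer cells are the resident macrophages of the liver. They sit inside the sinusoids, the liver capillaries, where they touch both the endothelium and the hepatocytes, and they clear bacteria, aged erythrocytes and dying cells from the blood. Clec4f, a lectin that binds galactose-rich glycans, marks Kupffer cells in mice. Cd5l is a secreted scavenger protein of tissue macrophages, Csf1r the receptor for their growth factor, Vsig4 a complement receptor, and Ptprc encodes CD45, a phosphatase on all leukocytes. After CCl4 injury, which destroys hepatocytes around the central vein, macrophages gather at dying cells and engulf them. A single profile that holds both kinds of RNA can come from 2 cells caught together, from an attached or engulfed fragment or from free RNA, and these cannot be told apart in counts per barcode. Doublets were not removed here, and which of these gave the profiles was not tested.

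In all, 23220 barcodes with 681279005 UMIs were listed for Tom- and 16339 barcodes with 715333889 UMIs for Tom+. Of these barcodes, 11220 Tom- and 9826 Tom+ cells were eligible. The libraries shared 503 barcodes, among them those of 11 Tom- and 7 Tom+ members, and no barcode belonged to a member in both libraries.

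By the hepatocyte marker, the members were hepatocyte profiles. Alb, which encodes serum albumin, had a median of 110516 CPM in Tom- members and 109613 CPM in Tom+ members, against 118312 and 107447 CPM in other cells. Members did not hold more UMIs than other cells, with a median of 36880 against 40698 in Tom- and 40934 against 44914 in Tom+. They held somewhat more detected genes, 6359 against 6137 and 6740 against 6452. Depth was not free of the selection, because the macrophage value divides by all UMIs of the cell and the filter capped UMIs. Among members, this value and the UMIs per cell had a Pearson correlation of -0.358 in Tom- and -0.270 in Tom+. How far the selection set the depth of members was not tested. Of the 12 hepatocyte genes fixed as a list, among them Ttr (transthyretin), Apob (the protein of very-low-density lipoprotein) and Hnf4a (a master regulator of hepatocyte genes), none was 2-fold higher or lower in members, and the median log2 ratio of members over other cells was -0.11 in Tom- and -0.12 in Tom+. The largest departure in that list was that of Tdo2, a tryptophan-degrading enzyme, at 188 against 239 CPM in Tom- and 175 against 230 CPM in Tom+.

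A small subset of members fell short of this. In Tom-, 13 members (3.13%, 1.68 to 5.30) had less Alb than the 1st percentile of other cells, which lay at 55940 CPM. In Tom+, 4 members (2.16%, 0.592 to 5.44) lay under the corresponding 45759 CPM. These cells were shallower, with a median of 18025 and 20056 UMIs, and richer in macrophage RNA, with a median macrophage value of 9653 and 7605 CPM. They made up 9 of the 30 members with the highest value, 7 from Tom- and 2 from Tom+. Some results that change without them are named beside those results.

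**Figure D1:**
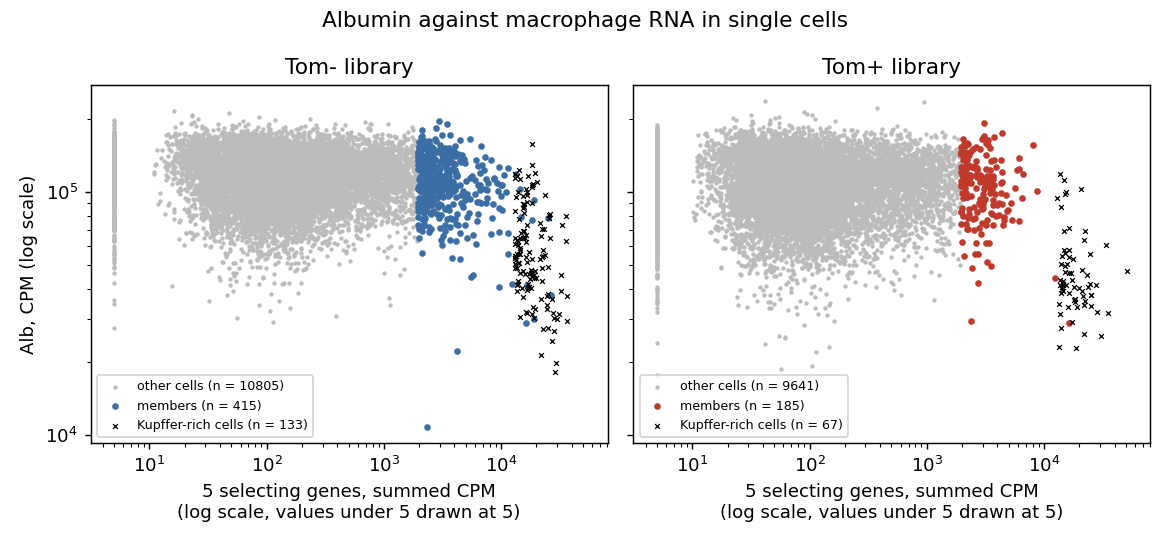
Alb (CPM, log axis) against the macrophage value (summed CPM of the 5 selecting genes, log axis) in single cells of the Tom- library (left) and the Tom+ library (right); grey points are other cells, coloured points members and crosses Kupffer-rich cells, a comparison group of 133 Tom- and 67 Tom+ cells with few genes. Most members lie at the Alb level of the grey points, with medians of 110516 and 109613 CPM, while a few members of the highest values reach down to the Kupffer-rich cells.

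The selecting genes described the members as follows, as a description of the choice and not as a finding. The macrophage value of members ran from 1943 to 26867 CPM in Tom- (median 2880) and from 1944 to 16177 CPM in Tom+ (median 2822), while the median of other cells was 119 and 88.0 CPM. The last members inside the cut had 1945, 1944 and 1943 CPM and the first cells outside it 1941, 1939 and 1939 CPM, so the cut fell in a continuous range. Within 10% above it lay 100 members and within 10% below it 117 cells. The median member held 121 selecting UMIs in Tom- and 130 in Tom+, and no member fewer than 40. All 5 genes were seen in 441 members, 4 in 137, 3 in 20 and 2 in 2.

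Other cells carried some of the same RNA. Clec4f had at least 1 UMI in 98.8% of Tom- and 99.5% of Tom+ members, and also in 57.3% and 50.7% of other cells. With every cell thinned to 10000 UMIs these shares were 95.9% and 97.3% of members against 25.6% and 22.2% of other cells. Clec4f summed to 630.6 CPM in Tom- and 621.2 CPM in Tom+ members, against 43.6 and 37.8 CPM in other cells. For Cd5l the levels were 2453 and 2062 CPM against 190 and 152 CPM. For Ptprc they were 63.3 and 56.9 CPM against 4.63 and 3.77 CPM. Clec4f lies on chromosome 6 at 83644542 to 83656187 (minus strand) and Cd5l on chromosome 3 at 87357881 to 87371073 (plus strand) of the mm10 build, both protein-coding.

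The share of each gene among the selecting UMIs was compared between groups of cells and differed most in Tom+ Kupffer-rich cells. Cd5l made up 71.9% of the selecting UMIs in Tom- members, 73.0% in Tom- other cells and 70.0% in Kupffer-rich cells, the 200 cells with 1000 to under 5000 detected genes that had the highest macrophage value. In Tom+ the corresponding shares were 69.0%, 71.6% and 63.2%. Clec4f made up 18.5%, 16.7% and 20.3% in Tom- and 20.8%, 17.8% and 24.9% in Tom+. The Kupffer-rich cells served as the nearest thing to macrophage profiles in these libraries, although their median Alb of 54305 and 41683 CPM showed that they, too, held hepatocyte RNA.

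Macrophage genes that took no part in the selection were higher in members together with those that did. Of 30 such genes in a Kupffer cell and a phagocyte list, 29 were expressed highly enough to compare in both libraries (at least 10 CPM in either sum and 20 UMIs over both), and 26 were at least 2-fold higher in members in both libraries, with none 2-fold lower. Their median log2 ratio was 3.30 in Tom- and 3.50 in Tom+. Over all genes 693 of 8406 were at least 2-fold higher in both libraries, 8.24%, and the median of all genes was 0.05 and 0.02. Because the members were chosen on macrophage RNA, this contrast is the selection's own and supports nothing by itself.

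Among the 12 Kupffer cell genes, 11 were past 2-fold in both libraries. Cd163, the scavenger receptor for haptoglobin-bound haemoglobin, was at 388 CPM in Tom- and 304 CPM in Tom+ members against 28.2 and 19.0 CPM in other cells. Marco, a scavenger receptor for bacteria, was at 282.5 and 155.2 CPM against 22.2 and 14.2 CPM. Timd4, a receptor for phosphatidylserine on dying cells that marks long-lived Kupffer cells, was at 51.8 and 43.2 CPM against 4.39 and 3.12 CPM. The exception was Nr1h3, the nuclear receptor LXR alpha that hepatocytes transcribe as well, at 105 and 112 CPM against 59.5 and 68.0 CPM. Slc40a1, the iron exporter ferroportin, also had a high level in other cells, 144 and 136 CPM, and stood at 418 and 410 CPM in members.

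Of the phagocyte list 15 of 17 compared genes were past 2-fold in both libraries. C1qb, a chain of the first complement component, was at 706 and 790 CPM in members against 73.6 and 78.3 CPM in other cells. Ctss, a lysosomal protease of antigen-presenting cells, was at 399 and 465 CPM against 40.7 and 38.9 CPM. Tyrobp, the adaptor of activating myeloid receptors, was at 341 and 323 CPM against 34.6 and 29.8 CPM. Ctsb, a lysosomal protease of many cell types that other cells held at a high level, was not past 2-fold, at 712 and 713 against 476 and 429 CPM.

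**Figure D2:**
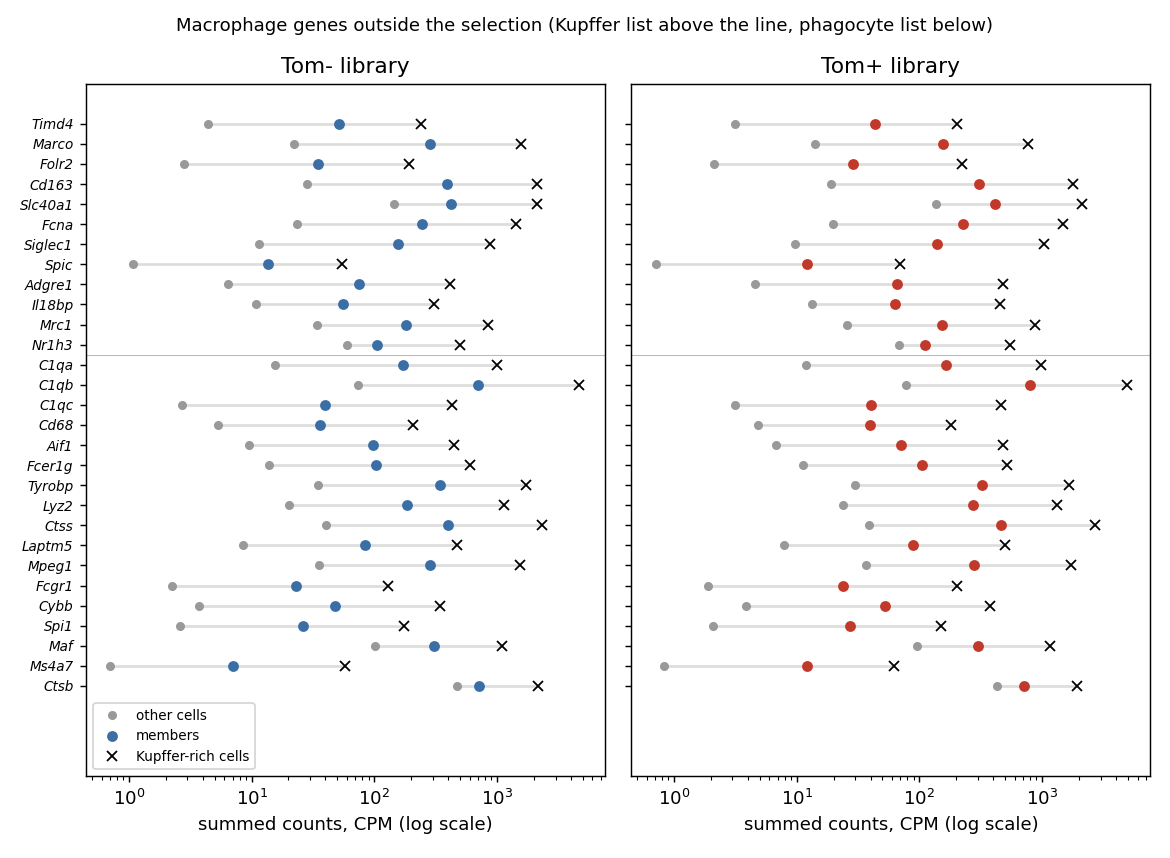
Summed counts (CPM, log axis) of 29 macrophage genes outside the selection in other cells (grey), members (coloured) and Kupffer-rich cells (crosses) of each library. Members lie between the other groups for nearly all genes, Cd163 for example at 388 CPM in Tom- members and 28.2 CPM in Tom- other cells, while Ctsb and Nr1h3 separate them least, Ctsb at 712 and 476 CPM.

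The level of members was also placed on the way from other cells to Kupffer-rich cells, groups that the macrophage value itself set, so the fractions are a description. For 27 genes outside it in Tom-, those at least 5-fold higher in Kupffer-rich than in other cells, members held a median of 16.2% of the excess, with a range of 8.71 to 23.5%. For 28 such genes in Tom+ they held 15.4%, with a range of 8.09 to 19.9%. The lowest fraction in both libraries was that of C1qc, another chain of the first complement component.

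Cells also differed in how much macrophage RNA they held, and the genes outside the selection followed the value. Across members, their summed CPM and the macrophage value had a Pearson correlation of 0.879 and a Spearman correlation of 0.779 in Tom- (n = 415 cells), and of 0.783 and 0.745 in Tom+ (n = 185 cells). These cells share a library and a total in the denominator of both values, so the correlation is a description. In the 150 members with the highest values the genes outside the selection summed to 9479 CPM and the median Alb was 100712 CPM. In the 150 with the lowest values they summed to 4106 CPM and the median Alb was 115205 CPM. The 13 Tom- members of low Alb summed to 18725 CPM and the 4 Tom+ members to 11130 CPM, against 29780 and 30033 CPM in Kupffer-rich cells.

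The selecting genes aside, the largest ratios over the table were these. In Tom- 815 of 8555 genes were at least 2-fold higher in members (9.53%) and none lower (0%), and in Tom+ 739 of 8606 were higher (8.59%) and 1 lower (0.0116%). The share 2-fold lower in both libraries was 0%. Mmp27, a matrix metalloproteinase, had the largest ratio when genes were ranked by the lower of their ratios in both libraries, at 15.6 against 0.807 CPM in Tom- (log2 4.27) and 21.9 against 0.870 CPM in Tom+ (log2 4.66). Nfam1, an immune receptor with an activation motif, was at 19.4 against 1.18 CPM and at 21.1 against 1.25 CPM. Hdac9 (a histone deacetylase), Naip6 (a sensor of bacterial proteins with near-identical relatives, so its counts are uncertain), Batf3 (a transcription factor of dendritic cells), Lair1 (an inhibitory collagen receptor), Cd300c2, Rgs1 (a regulator of G protein signalling), Cd48 and Lgals3 (galectin-3) also belonged to the 15 largest, as did Rims3, Kcna2, Pde1b, Bank1 and Hacd4. Their log2 ratios lay between 3.79 and 4.22.

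The genes with the lowest ratios differed by less. Obp2a was at 42.1 against 76.4 CPM in Tom- (log2 -0.86) and 15.8 against 36.2 CPM in Tom+ (log2 -1.20), the single gene past 2-fold in the lower direction. Slc1a2, a glutamate transporter of hepatocytes next to the central vein, had log2 ratios of -0.69 and -0.91, and Cyp2f2, a cytochrome P450 of periportal hepatocytes, of -0.61 and -0.67. Tsen54, Myo15b, Hsd17b6, Akap5, Asap3, Tmprss2 and Tbx3 made up the remainder of the 10 lowest, with log2 ratios from -0.51 to -0.81.

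RNA of other non-parenchymal cells was higher in members as well. All 12 endothelial genes were at least 2-fold higher in both libraries, with a median log2 ratio of 1.26 in Tom- and 1.40 in Tom+. Their summed level was 639 and 499 CPM in members against 249 and 187 CPM in other cells, and Stab2, a scavenger receptor of sinusoidal endothelium, was at 103 and 74.0 CPM against 34.4 and 24.8 CPM. Of the stellate cell and fibroblast list 8 of 8 compared genes were past 2-fold, with medians of 2.15 and 1.94. This list summed to 627 and 564 CPM against 138 and 146 CPM. Col3a1, a fibrillar collagen of scar tissue, was at 132 and 91.3 CPM against 24.1 and 26.7 CPM, and Dcn (decorin), a matrix proteoglycan, at 100.4 and 111 CPM against 23.5 and 24.6 CPM.

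Some members also ranked among the cells richest in those lists. When the 600 eligible cells with the most endothelial RNA and the 600 with the most stellate RNA were taken in the same way, 80 members (13.3%) were in the endothelial group, 116 (19.3%) in the stellate group and 22 in both, while each group was 2.85% of the eligible cells. Members in neither group, 283 Tom- and 143 Tom+ cells, held 407 and 350 CPM of the endothelial list against 203 and 160 CPM in other cells of neither group. They held 218 and 308 CPM of the stellate list against 97.1 and 103 CPM. The difference was thus smaller without those cells and was still there in both libraries, and the number of macrophage genes outside the selection past 2-fold was 26 without them. The number of all genes at least 2-fold higher in both libraries was 490 without them and 668 without the members of low Alb. With all members it was 693 of 8406 (8.24%). How many genes were compared under these exclusions is not given here.

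Markers of other blood cells were compared in the same way. T and NK cell genes summed to 5.92 CPM in Tom- and 3.31 CPM in Tom+ members against 2.42 and 2.04 CPM in other cells, and none of the 12 could be compared. Of the B and plasma cell list Ighm, the heavy chain of immunoglobulin M, was past the level limit in Tom- alone, at 29.9 against 2.01 CPM, and 69.2% of its UMIs in Tom- members lay in 1 cell. Csf3r, a growth factor receptor of granulocytes and macrophages, was the single compared gene of the neutrophil list, at 15.9 and 18.8 against 1.93 and 1.38 CPM, while S100a8, which defines neutrophils, was at 2.78 and 0.228 CPM against 0.461 and 0.226 CPM. Of the monocyte list Plac8, at 64.9 and 50.8 against 9.07 and 7.75 CPM, and Fcgr4, an activating Fc receptor, at 36.2 and 31.6 against 3.36 and 2.64 CPM, were past 2-fold. Ccr2, the chemokine receptor of recruited monocytes, was at 4.08 and 4.57 CPM against 0.509 and 0.449 CPM, under the level limit.

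Of 11 compared genes for handling erythrocytes and iron, 5 were past 2-fold in both libraries: Cd163, Slc40a1, Spic (a transcription factor of iron-recycling macrophages), Slc11a1 (a metal transporter of the phagosome) and Hmox1 (haem oxygenase). The share over all genes to set beside this list and the lists that follow was 8.24%. Hmox1 was at 92.9 and 63.9 CPM in members against 12.6 and 11.2 CPM in other cells, and Slc11a1 at 65.2 and 65.8 against 6.08 and 5.07 CPM. The genes of this list that hepatocytes secrete or store differed little: Trf (transferrin) was at 18727 and 20244 against 18747 and 19663 CPM, Hpx (haemopexin) at 9958 and 8222 against 10912 and 8241 CPM, and the log2 ratios of Hamp, the iron hormone hepcidin, were -0.24 and -0.39.

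Of 12 genes for the clearance of dying cells 8 were past 2-fold in both libraries, among them Axl at 308 and 284 against 31.8 and 28.2 CPM and Mertk at 103 and 118 against 23.4 and 29.4 CPM, both receptor kinases that recognise dying cells through bridging ligands. The log2 ratios of the ligands were 0.16 and 0.59 for Gas6 and 0.21 and 0.12 for Pros1. Stab1, Stab2 and Timd4 of this list also belong to the endothelial or Kupffer cell lists. In antigen presentation 5 of 6 compared genes were past 2-fold, including Cd74, the invariant chain of class II molecules, at 158 and 191 against 22.2 and 26.4 CPM. Of 5 compared cytokines, Il1a, Il18, Cxcl16 and Tgfb1 were past 2-fold, Tgfb1, which drives collagen production, at 40.1 and 34.5 against 8.57 and 6.72 CPM. The cytokines Il1b, Tnf, Il6 and Il10 were under 10 CPM in all members' sums.

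The interferon response list had 7 of 11 compared genes past 2-fold in both libraries, with medians of 1.43 in Tom- and 1.15 in Tom+. It summed to 949 and 729 CPM in members, 409 and 361 CPM in other cells and 2881 and 2771 CPM in Kupffer-rich cells. Which cell's RNA these genes came from was not tested. Oasl2 was at 66.7 and 57.6 CPM against 12.4 and 10.6 CPM, whereas Usp18 and Isg15 were not past 2-fold in either library. Acute phase genes, which hepatocytes secrete in inflammation, gave 0 of 12 past 2-fold, with medians of -0.05 and -0.01. Of the senescence and p53 list 0 of 6 compared genes were past 2-fold, and Cdkn1a, the p21 inhibitor of the cell cycle, was at 96.0 and 83.4 against 105 and 87.2 CPM. Among the cycling genes Mki67 was past 2-fold, at 19.9 and 12.6 against 2.53 and 1.96 CPM. The cycling list summed to 71.8 and 46.4 CPM in members, 14.1 and 12.4 CPM in other cells and 403 and 186 CPM in Kupffer-rich cells, and its source was not tested either. Of the 8 genes of the LIFR ligand and receptor list, a pathway the study followed, 2 could be compared, and 0 were past 2-fold. Lifr itself had log2 ratios of -0.17 and -0.23. Over all genes 8.24% were at least 2-fold higher in both libraries, so counts of 0 in lists this short say little about members.

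The split of members between the libraries was free of the rule, which ranked all cells together. The members were 415 of 11220 Tom- cells, 3.70% (3.36 to 4.06), and 185 of 9826 Tom+ cells, 1.88% (1.62 to 2.17). The ratio of the Tom+ to the Tom- share was 0.509 (0.429 to 0.604), so profiles with much macrophage RNA were less frequent in the p16high library. This was not particular to members. The endothelial group was 3.69% of Tom- and 1.89% of Tom+ eligible cells, and the stellate group 3.05% and 2.63%. Tom+ other cells had a higher median depth than Tom- other cells, 44914 against 40698 UMIs, and the ratio was 0.509 also when the value was computed after thinning each cell to 10000 UMIs. The value is a share of UMIs, so thinning changes it little on average, and it left the cell filter as it was. That filter passed 48.3% of Tom- and 60.1% of Tom+ barcodes. The part of depth was not tested. Without the members of the endothelial or stellate group it was 0.577. Whether the ratio belongs to the p16 state, to the mice or to the sort and loading of each library cannot be told apart with 1 library a group.

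Hepatocytes change their genes along the lobule, from the portal vein, where they make glucose and urea, to the central vein, where they detoxify and make glutamine. Each eligible cell was placed by the log2 ratio of its UMIs of 12 central (zone 3) genes to those of 12 portal (zone 1) genes, and all eligible cells were cut into 3 equal bins, portal, middle and central. Tom- other cells were 43.8% portal, 36.7% middle and 19.5% central, and Tom+ other cells 21.9%, 28.7% and 49.4%. The Tom+ library thus lay further towards the central vein.

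More members than other cells lay in the middle bin of both libraries. Of the stellate group 51.2% in Tom- and 27.9% in Tom+ were in that bin. Of the endothelial group it held 42.3% (37.5 to 47.2) in Tom- and 30.6% (24.1 to 37.8) in Tom+. Of the Kupffer-rich cells it held 99.2% and 86.6%, but at a median of 4615 and 3613 UMIs their index spread over a narrower range (SD 0.70 and 0.65 over cells, against 2.00 and 2.18 in members), and their share is not read as a position. Of the Tom- members 34.5% (29.9 to 39.2) were portal, 48.9% (44.0 to 53.8) middle and 16.6% (13.2 to 20.6) central. In Tom+ 12.4% (8.05 to 18.1) were portal, 41.6% (34.4 to 49.1) middle and 45.9% (38.6 to 53.4) central. The interval of the middle share lay above the share of other cells in both libraries, and that of the portal share below it. With 300 members the middle share of Tom+ was 34.4% (24.7 to 45.2), an interval that includes the 28.7% of other cells, and with 1200 members the portal share of Tom+ was 18.6%, with an interval that reaches 22.6% and so includes their 21.9%. Without the members of the endothelial or stellate group the middle share of Tom- was 41.0% (35.2 to 47.0), an interval that includes the 36.7% of other cells, and that of Tom+ was 42.7% (34.4 to 51.2). The portal share of Tom- was then 41.3% (35.5 to 47.3), which includes the 43.8% of other cells. An index from Glul and Cyp2e1 against Sds and Cyp2f2 alone was also tried. Its middle share was 51.1% (46.2 to 56.0) in Tom- and 36.8% (29.8 to 44.1) in Tom+. The Tom+ portal share was 17.8% (12.6 to 24.1) under it and 16.2% (11.2 to 22.3) under an index from standardised gene levels. Both of these intervals reach the 21.9% of other cells under the main index. The shares of other cells under the alternative indices are not given here. Of the members 96 (16.0%) lay within 0.25 of a bin edge on the log2 scale, against 10.5% of other cells.

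Read as the chance that a cell of a bin was a member, the middle bin was highest in both libraries. In Tom- 2.93% of portal, 4.87% of middle and 3.18% of central cells were members, and in Tom+ 1.08%, 2.71% and 1.75%. The Tom+ share was below the Tom- share in every bin, with ratios of 0.367 (0.237 to 0.568), 0.556 (0.430 to 0.720) and 0.552 (0.404 to 0.756). The lower Tom+ share was thus present within each of the 3 bins. Over 10 bins the Tom- share was 28 of 1872 cells in the most portal bin, 5.52% in bin 4, 5.45% in bin 7 and 0.852% in the most central bin. The Tom+ share was 0 of 233 cells in the most portal bin (0 to 1.57%), 3.06% in bin 4, 2.88% in bin 6 and 1.65% in the most central bin. In that last bin the Tom+ share was the higher, from 29 of 1753 cells (1.11 to 2.37) against 3 of 352 Tom- cells (0.176 to 2.47), with overlapping intervals.

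**Figure D3:**
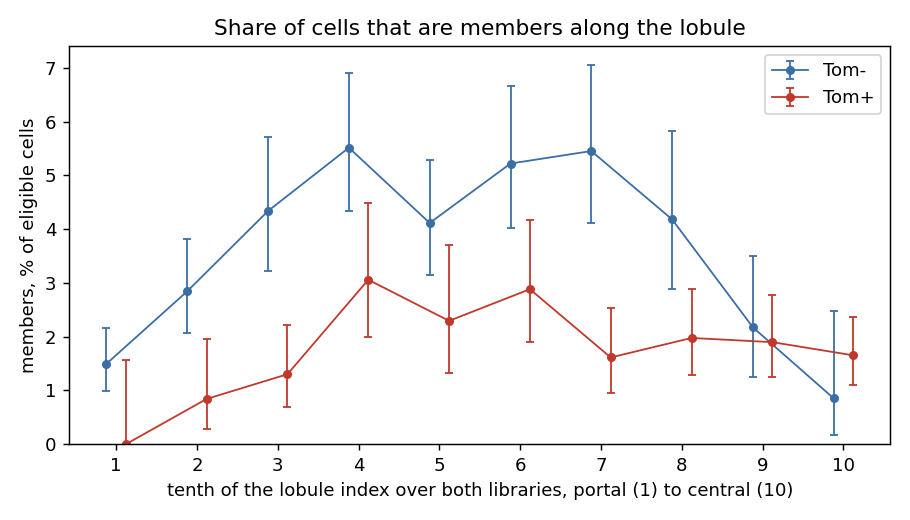
Share of eligible cells that were members (%, with exact 95% intervals for counting error) in 10 equal bins of the lobule index, from portal (1) to central (10), for the Tom- (blue) and Tom+ (red) libraries. Tom- shares form a plateau in the middle of the lobule, 5.52% in bin 4 and 5.45% in bin 7, and drop at both ends, and Tom+ shares start at 0 of 233 cells.

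Summed over all members, the genes of both the zone 1 and the zone 3 list were by median slightly lower than in other cells. No gene of the zone 1 list was past 2-fold in both libraries, and the median log2 ratio was -0.34 in Tom- and -0.41 in Tom+. Sds, a serine-degrading enzyme of portal hepatocytes, was at 971 and 571 CPM in members against 1314 and 840 CPM in other cells. Ctsc was the exception at 387 and 310 against 206 and 130 CPM, a lysosomal protease that immune cells also use. The zone 3 list had 0 of 10 past 2-fold and medians of -0.31 and -0.40. Cyp2e1, the enzyme that activates CCl4, was at 1004 and 1759 against 1215 and 2081 CPM, and Glul, glutamine synthetase, at 32.9 and 78.3 against 33.6 and 111 CPM. In the zone 2 list Igfbp2 had log2 ratios of -0.01 and 0.03.

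Macrophage genes were next compared between members of the central and portal bins. Over all genes 169 of 8513 were at least 2-fold higher in central than in portal members in both libraries (1.99%) and 95 at least 2-fold lower (1.12%). Of 29 compared macrophage genes outside the selection, 0 were past 2-fold in the higher and 1, Marco, in the lower direction. Of 6 compared genes of a list for macrophages of scar tissue, 3 were past 2-fold higher in central members in both libraries, Trem2, Gpnmb and Fabp5. Other cells had the same direction, with log2 ratios of central over portal of 1.68 and 2.15 for Trem2, 1.48 and 2.83 for Gpnmb and 1.58 and 1.33 for Fabp5. Fabp5, a fatty acid binding protein, was itself close in members and other cells, with log2 ratios of 0.28 and 0.48. These lists were chosen with results of these data known.

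Marco had the clearest portal level. It was at 364, 269 and 138 CPM in portal, middle and central Tom- members and at 333, 186 and 75.5 CPM in Tom+ members. The log2 ratio of central over portal was -1.40 (-1.56 to -1.24) in Tom- and -2.14 (-2.37 to -1.92) in Tom+. In other cells it was -0.88 and -1.47, the same direction with less RNA. Marco had a UMI in 88.1% of portal and 66.7% of central Tom- members, and in 91.3% and 55.3% of Tom+ members. The gene lies on chromosome 1 at 120474538 to 120505024 (minus strand, mm10).

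Cd163 and Fcna, a ficolin that recognises microbial sugars, were lower in central than in portal members too. Of the 29 compared macrophage genes outside the selection, 4 had an interval of the log2 central over portal ratio below 0 in both libraries. For 5 the interval lay above 0 in both, and the remainder did neither. The share of all genes past this interval call is not given here, so these counts are not read as a result about macrophage genes. Cd163 was at 379, 420 and 313 CPM from portal to central in Tom- and at 412, 324 and 254 CPM in Tom+. Fcna was at 251, 261 and 191 CPM in Tom- and at 300, 244 and 188 CPM in Tom+. The log2 ratio of central over portal for Cd163 was -0.27 and -0.70 in members against -0.10 and -0.64 in other cells. For Fcna it was -0.39 and -0.67 against 0.06 and -0.41, so Tom- other cells did not share its direction.

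Lyz2, the lysozyme of myeloid cells, went the other way, lower in portal than in central members, although in Tom- the middle level was as high. It was at 117, 223 and 219 CPM from portal to central in Tom- members and at 116, 189 and 391 CPM in Tom+ members. The log2 ratio of central over portal was 0.90 (0.74 to 1.06) and 1.75 (1.49 to 2.02), and 1.02 and 1.05 in other cells. Ctss was at 295, 467 and 431 CPM in Tom- and at 322, 345 and 615 CPM in Tom+.

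Trem2 and Gpnmb, a lipid receptor and a membrane glycoprotein of macrophages in scars, were highest in central Tom+ members. Trem2 was at 3.43, 8.18 and 11.1 CPM in Tom- and at 5.24, 2.20 and 30.2 CPM in Tom+. Its counts were low, with 30 central and 21 portal UMIs in Tom- and 120 and 6 in Tom+, where 23 members were portal. Without the cell with the most Trem2 UMIs its central level in Tom- was 7.85 CPM, under the 10 CPM limit. Gpnmb was at 24.5, 71.1 and 78.7 CPM in Tom- and at 9.60, 17.9 and 507 CPM in Tom+, and it had a UMI in 39.1% and 63.5% of central members. Single cells weighed heavily on Gpnmb, since without the cell with the most UMIs its central level was 54.6 CPM in Tom- and 358 CPM in Tom+. Not all of the list for scar macrophages followed this order in Tom-. Lgals3, also of that list, was at 28.6, 52.1 and 35.5 CPM from portal to central in Tom-. Its log2 ratio of central over portal was 0.31 (-0.06 to 0.68) there and 2.20 (1.52 to 2.98) in Tom+. Genes of the list under the level limit in Tom- were lower in its central than in its portal members. Gpnmb lies on chromosome 6 at 49036546 to 49070929 (plus strand, mm10).

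**Figure D4:**
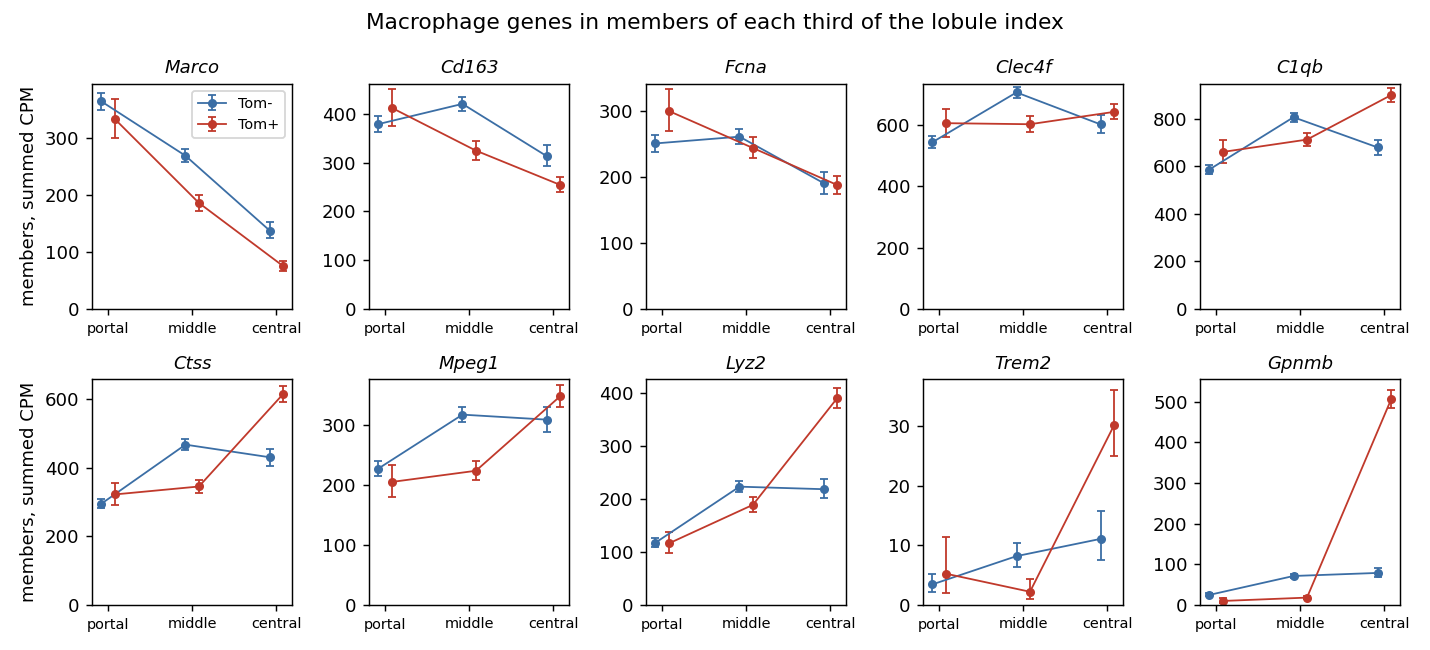
Summed CPM of 10 macrophage genes in members of the portal, middle and central bins of the Tom- (blue) and Tom+ (red) libraries, with exact Poisson 95% intervals for counting error. Marco goes down from 364 to 138 CPM in Tom- and from 333 to 75.5 CPM in Tom+ members, Clec4f is a selecting gene shown for reference, and Lyz2, Trem2 and Gpnmb are highest in central Tom+ members.

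Few genes separated the members of the libraries from each other. In Tom+ members 24 of 8665 genes were at least 2-fold higher than in Tom- members (0.277%) and 10 at least 2-fold lower (0.115%), a description of these libraries and not of the conditions. When the Tom- members were weighted to the lobule bins of the Tom+ members, 5 were higher and 10 lower. With 300 members 37 were higher and 41 lower, and with 1200 members 15 and 6. With cells of 2000 to 10000 detected genes eligible they were 43 and 55. How many genes were compared under these settings is not given here. The reporter tdTomato was at 723 CPM in Tom+ and 67.6 CPM in Tom- members, close to the 740 and 64.1 CPM of other cells. In Kupffer-rich cells it was at 215 and 63.4 CPM.

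Of the 10 genes with the largest Tom+ over Tom- ratio in members, 9 were also at least 2-fold higher in Tom+ other cells. Gstm3, a glutathione transferase of a family with similar sequences, was at 382 against 90.0 CPM (log2 2.09), with a log2 ratio of 1.47 in other cells. Cyp7a1, the rate-limiting enzyme of bile acid synthesis, was at 365 against 117 CPM (log2 1.64), with 1.37 in other cells. Cyp2c55, Slc13a3, Rhbg, Ces2c, Oat, Slc1a2 and Gstm1 had log2 ratios between 1.30 and 1.72. Gpnmb was the exception, at 239 against 55.5 CPM (log2 2.11, 1.99 to 2.22), with a log2 ratio of 0.43 in other cells. With cells of 2000 to 10000 detected genes eligible, the direction turned, to a log2 ratio of -0.40. It was seen in 72 Tom+ (38.9%) and 105 Tom- (25.3%) members, and 5 cells held 68.1% and 51.0% of its UMIs. Without the highest cell of each library it was at 169 against 43.5 CPM. With Tom- members weighted to the Tom+ bins, the log2 ratio was 1.80 for Gpnmb and 1.21 for Gstm3. Without the members of low Alb that of Gpnmb was 2.55.

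Single cells weighed on the genes lower in Tom+ members. Igkc and Ighm, the light and heavy chains of antibodies, were at 3.20 against 23.8 CPM and at 4.68 against 29.9 CPM, but 75.7% and 69.2% of their UMIs in Tom- members lay in 1 cell. Without that cell Igkc was at 5.80 CPM and Ighm at 9.24 CPM in Tom- members. Without the members of low Alb the log2 ratios, -2.90 for Igkc and -2.68 for Ighm, were -0.85 and -1.13. Cxcl9, a chemokine that draws T cells, was at 20.3 against 57.5 CPM (log2 -1.50), with 0.15 in other cells, and 5 cells held 60.7% of its UMIs in Tom- members. Cxcl10, a related chemokine, was at 5.14 against 11.8 CPM (log2 -1.20). Fos, Obp2a, Serpina3g, Arhgap6, Cux2 and Ptgds completed the 10 lowest, with log2 ratios from -1.51 to about -1, and they were also lower in Tom+ other cells.

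Cdkn2a, the gene of p16Ink4a and of a second protein in another reading frame, had more counts in members than their share of the cells. Members held 35 UMIs in Tom- and 25 in Tom+, which is 2.07 and 2.85 CPM against 0.280 and 0.293 CPM in other cells. The log2 ratio was 2.89 and 3.28, under the 10 CPM limit that the gene counts used. A UMI was present in 7.23% and 10.3% of members against 1.17% and 1.33% of other cells. The members had 60 of the 336 Cdkn2a UMIs of eligible cells, 17.9% (13.9 to 22.4), and 2.60% of all UMIs. Cdkn2a lies on chromosome 4 at 89274471 to 89294653 (minus strand, mm10).

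The level of Cdkn2a was higher in bins of higher macrophage value, although the intervals of neighbouring bins overlap in part of the steps of both libraries. In Tom- cells it was 0.163 CPM at values under 100 CPM, 0.199 CPM at 100 to 300, 0.426 CPM at 300 to 1000 and 1.15 CPM from 1000 to the cut. In Tom+ cells it was 0.117, 0.272, 0.768 and 0.998 CPM. A separate p16 entry of the feature table, which carries the same gene ID, did not show this order in Tom-, at 0.404, 0.405, 0.404 and 0.502 CPM and 1.30 CPM in members, and in Tom+ it was at 0.494, 0.483, 0.583 and 0.951 CPM and 0.913 CPM in members. For Cdkn2a the Kupffer-rich cells were at 15.5 and 7.29 CPM, from 12 and 2 UMIs, and for the p16 entry at 7.76 and 3.65 CPM, from 6 and 1 UMIs. Most Cdkn2a UMIs therefore stood in cells outside the members, and the counts do not tell which cell's RNA a UMI came from. The stellate and endothelial lists and the macrophage genes outside the selection went up over the same bins, and their part in the Cdkn2a level was not tested. The stellate list was at 75.7 and 74.9 CPM under 100 CPM and at 341 and 468 CPM from 1000 to the cut.

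**Figure D5:**
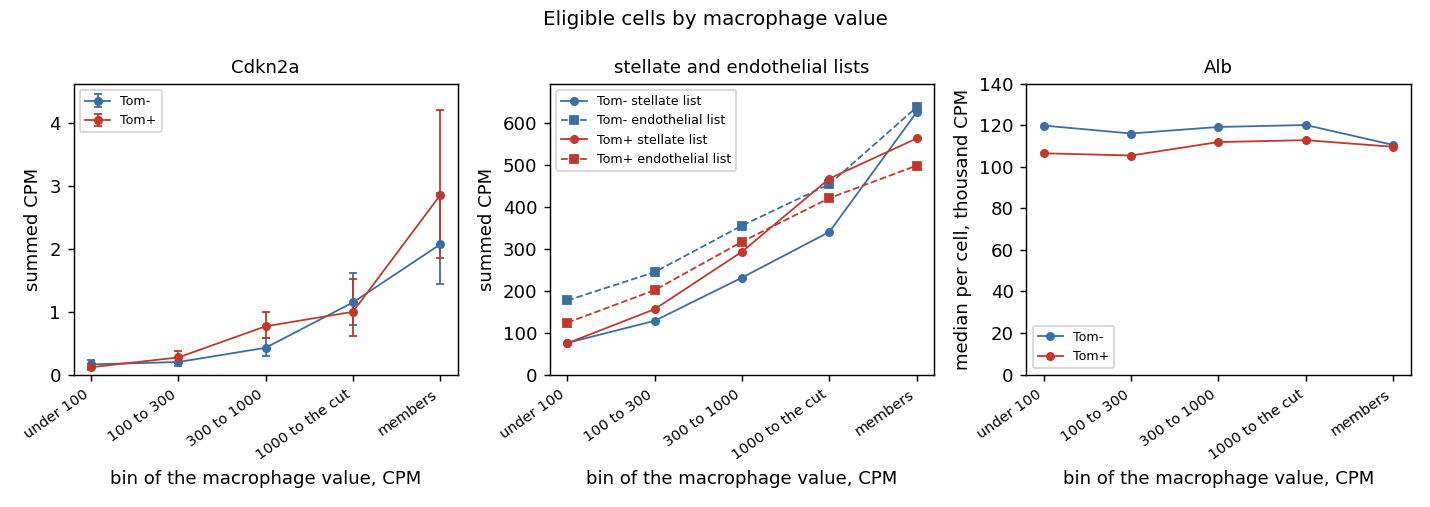
Eligible cells in 5 bins of the macrophage value (CPM), the last being the members, for the Tom- (blue) and Tom+ (red) libraries: summed CPM of Cdkn2a with exact Poisson 95% intervals (left), summed CPM of the stellate (solid) and endothelial (dashed) lists (middle) and median Alb (axis in 1000 CPM) (right). Cdkn2a goes from 0.163 to 2.07 CPM in Tom- and from 0.117 to 2.85 CPM in Tom+ while the median Alb of members stays near that of the lowest bin.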

How the data were processed

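The data were 2 libraries of a probe-based single-cell assay of fixed cells (10x Flex), which measures hybridised probe pairs. The level or share of a gene is therefore compared between cells, and differences between genes are not read as differences in RNA amount. The authors counted UMIs with Cell Ranger 7.2.0 against mm10 (submitters' processing notes), with 3 custom probe pairs for tdTomato added, and deposited raw, unnormalised counts of 19073 features per barcode. From these, cells were filtered and ranked as the report states, counts were summed over members, other cells and comparison groups, and 2-fold calls, ranks and list medians used ratios with 0.5 UMIs added to each sum. Ratios printed for single genes are without it, except under alternative settings. Genes needed 10 CPM in either sum and 20 UMIs over both. Lists held 246 genes in 25 lists, of which 4 had no entry. Named genes were those of the lists, the 15 highest and 10 lowest ratios of members over other cells and the 10 highest and 10 lowest of Tom+ over Tom- members.

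With 1 library a group no test was made. Shares have Clopper-Pearson and ratios of counts exact conditional 95% intervals (the ratio of shares a log interval). Doublets were not removed. Values of 2 list genes are not reported here by name and stay in the counts. Members and lists were chosen with earlier results of these data known, and the Kupffer-rich cells, the endothelial and stellate groups and the bins of the macrophage value after the files were seen. Gene positions came from the GENCODE annotation of mm10. Python 3.11.15, numpy 2.4.6, scipy 1.17.1, pandas 2.3.3 and matplotlib 3.10.9 were used, and the ratio step was tested on simulated data.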

Additional observations from a re-analysis of the deposited data

Results flagged for a closer look

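The feature table holds 2 custom entries that the comparisons of gene lists do not use, a separate p16 entry and a LINE-1 entry named L1Md_A. The p16 entry carries the Ensembl gene ID of Cdkn2a, and which part of the transcripts either entry is probed at is not given in the sources used here, and no cells without the reporter system were analysed here as a control. The p16 entry had 22 UMIs in Tom- members and 8 in Tom+ members, 1.30 and 0.913 CPM against 0.410 and 0.524 CPM in other cells. The log2 ratio was 1.67 (0.96 to 2.31) in Tom- and 0.80 (-0.43 to 1.80) in Tom+, lower than that of the Cdkn2a entry in both libraries, and the difference between the entries was not tested. L1Md_A had 43996 UMIs in Tom- members and 25122 in Tom+ members, 2604 and 2869 CPM against 2777 and 3266 CPM in other cells, with log2 ratios of -0.09 and -0.19.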

How the results depend on the processing

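No paired analysis was possible because there is 1 library for either sort. Over 17 alternatives 90 of 122 group-level values kept within their interval or 1.5 times their count. With 300 members the middle share of Tom- was 55.7%, the median log2 ratios of macrophage genes outside the selection 3.65 (Tom-) and 3.84 (Tom+), genes 2-fold lower in members 1, and genes 2-fold higher and lower in Tom+ than Tom- members 37 and 41. With 1200 members the ratio of shares was 0.615 and the latter counts were 15 and 6. With 2000 to 10000 detected genes the middle shares were 71.7% and 52.9%, the medians 4.51 and 4.83, genes higher and lower in members 1940 and 128, and in Tom+ members 43 and 55, and the log2 ratio of Gpnmb in Tom+ over Tom- members turned to -0.40. Against the 600 next cells the medians were 1.00 and 0.86, macrophage genes past 2-fold 3 and all genes higher 22, and Hsd17b6 in Tom+ turned to 0.20. Without a CPM minimum the counts were 2317 and 12 for members and 102 and 153 for Tom+ members, and with 50 CPM 128 higher in members and 14 and 2 in Tom+ members. Median-of-ratios scaling shifted the log2 ratios of 54 named genes by a median of -0.14 in Tom- and -0.09 in Tom+. Thinning gave 1 gene lower in members, and weighting to the Tom+ bins 5 genes higher in Tom+ members. The exclusions of low-Alb members and of members in the endothelial or stellate group were chosen after seeing the data, and the latter gave a middle share of 41.0% in Tom- and 1 gene lower. The cause of these changes was not tested. Of single values 562 left their interval without a change of sign and 1184 stayed within it. Depth limits Cdkn2a, at 35 and 25 UMIs.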

Other observations

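Haemoglobin RNA, of erythrocytes, lay mostly in single members. Hba-a2 has a near-identical copy, so its counts are uncertain. Hba-a2 was at 10.9 CPM in Tom- and 18.6 CPM in Tom+ members, and 1 cell held 95.7% of its UMIs in Tom+ and 62.7% in Tom-. Without that cell it was at 4.09 and 0.803 CPM. Of the cholangiocyte genes Pkhd1, a ciliary gene of bile ducts and the single one that could be compared, was at 9.59 and 7.99 CPM in members against 12.5 and 11.3 CPM in other cells.

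The 600 cells richest in the other non-parenchymal lists differed from the members in some lobule bins and not in others. Of the stellate group 33.0% of Tom- and 66.3% of Tom+ cells were in the central bin, against 16.6% and 45.9% of members. Of the endothelial group 41.5% and 24.7% were in the portal bin, against 34.5% and 12.4% of members, with overlapping intervals in Tom- (36.8 to 46.5 and 29.9 to 39.2). The central share of the endothelial group, 16.2% and 44.6%, was close to that of the members, as was the middle share of the Tom- stellate group, 51.2% against 48.9%. The groups share 116 and 80 cells with the members.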
